A study of Mus musculus with 4 samples.

Results

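The cells examined here were those that the authors named CD8_Naive, 1 of 21 cell types in their table of cell type markers, and the members described are the 198 genes that this table lists as higher in CD8_Naive than in all other cells. They were taken by the authors' annotation, out of 1679 genes listed for any type. The cells came from the liver and the lung of wild-type BALB/c mice, 8-week-old males, which received 1 intraperitoneal injection a day for 5 days of PBS or of rIL-33 at 0.5 µg. The latter is recombinant IL-33, an alarmin that activates group 2 innate lymphoid cells (ILC2s). The 4 groups (liver and lung of PBS mice, liver and lung of rIL-33 mice) held 1 library each, and the tissue of 2 to 6 mice was pooled per group. All 4 libraries were made from cells sorted as negative for CD3e, TCRb and other lineage proteins and positive for CD127, Thy1 and ST2, a gate for ILC2s that selects against T cells by their surface antigen receptor. The table was made from the 4 libraries together, so no value could be split by treatment or organ, no value had a replicate, and the depth per library was unknown.

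Naive CD8 T cells are T cells that have left the thymus and have not yet met their antigen. They carry an alpha-beta T cell receptor and the CD8 co-receptor, which binds MHC class I, and they circulate through blood and lymph nodes by means of the chemokine receptor CCR7 and the egress receptor S1PR1. Transcription factors such as TCF1 and LEF1 keep them in this state, and on activation they proliferate and turn on cytotoxic genes such as those of granzymes.

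Each listing gave a log2 difference between the average of CD8_Naive and that of all other cells, and the share of cells having a value above 0 on either side. These are the authors' deposited values. The shares were high outside the type too, with a median over the 198 genes of 64.5% in CD8_Naive and 67.65% in all other cells. Even *Cd3e*, which encodes a protein the gate selects against, had a value above 0 in 83.1% of all other cells. The shares were therefore read as shares of cells with a positive value on an unstated scale, not as shares of cells with the transcript, and the log2 differences were not read as fold changes of transcript number. CD8_Naive cells against the rest is no test, because the cells had been grouped by such genes, and the values below are a description.

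The 198 genes made up 9.9% of the 2000 features tested for the type and 11.8% of the genes listed for any type. The authors' adjusted p-value was under 0.05 for 188 of them, which was 9.4% of the features tested. The log2 difference ran from 0.25 to 3.45 with a median of 0.52. It was at least 0.5 for 103 genes, or 5.15% of the features tested.

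The size of the type was solved from the shares of cells. CD8_Naive made up 2.71% ± 0.0206 (least-squares SE over genes, which carries no spread between mice) of all cells, the 9th largest of the 21 types. CD8_Effector, the other type the authors named for CD8, came to 0.660%. The conventional CD4 type came to 3.16% and Treg (regulatory T cells) to 2.06%, and the sum of both CD8 types, CD4 and Treg was 8.59% of the sorted cells. The type gdT_Naive, named for naive gamma-delta T cells, came to 6.08% and gdT_TypeI to 11.7%.

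The label was checked against marker genes. All 7 markers of CD8 T cells were listed for the type, and so were 9 of 10 markers of naive T cells. The exception, *Il7r*, the CD127 gene on which the cells had been sorted, was listed for no type. Of 10 markers of effector or memory CD8 T cells, 4 were listed (*Nkg7*, *Ly6c2*, *Il2rb* and *Eomes*). None of the 26 markers of 6 other cell sets was listed for CD8_Naive, whereas 24 of them were listed for some other type. Of all listed genes, 11.8% were listed for CD8_Naive. The authors named the types by hand from cluster markers, so these counts describe the name and are no independent support for it.

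**Figure D1:**
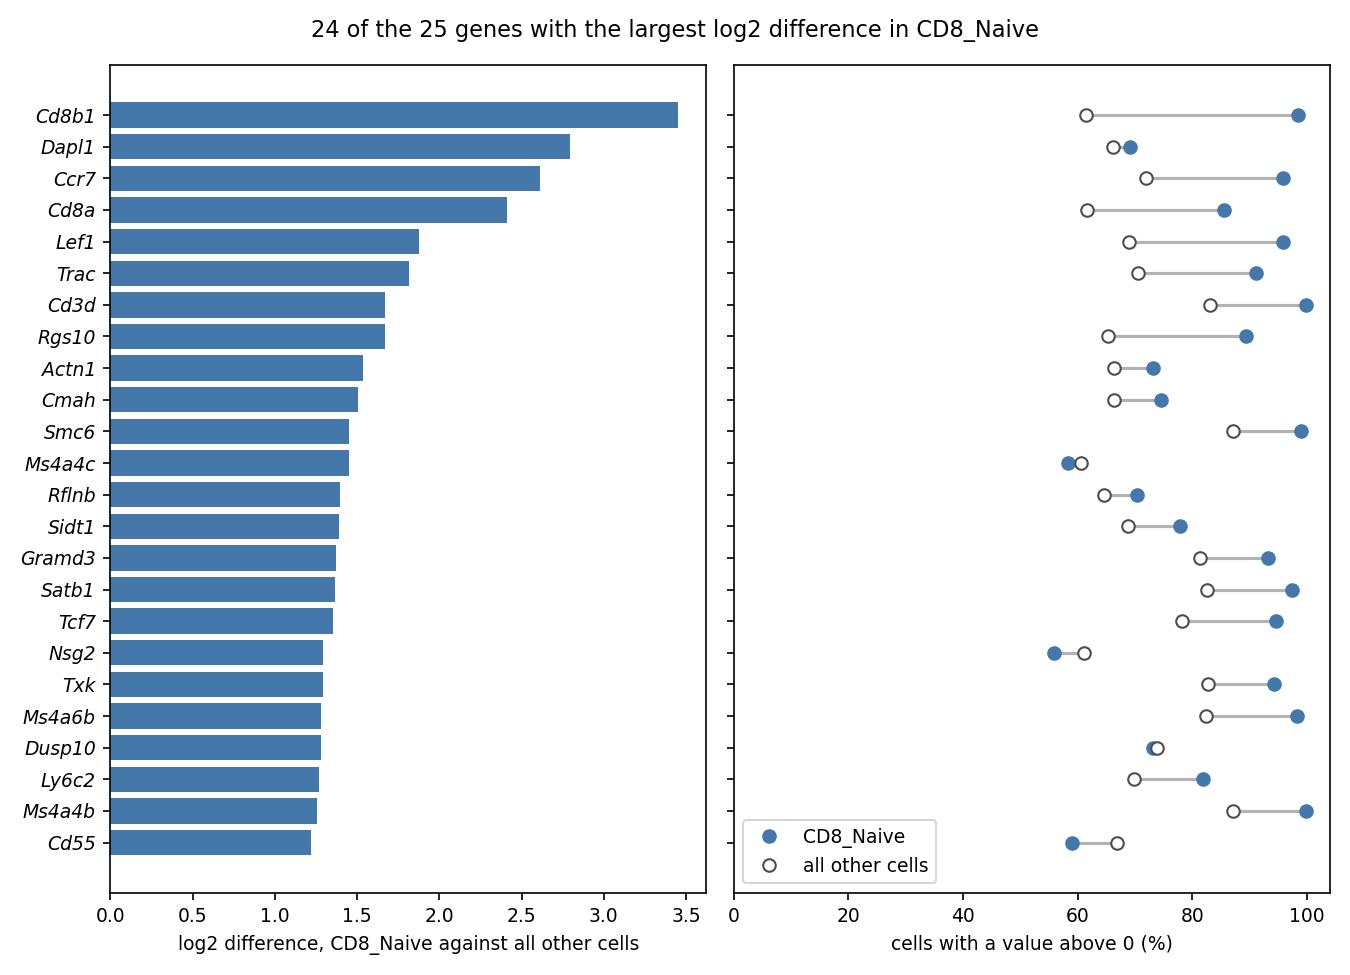
Of the 25 genes with the largest log2 difference in CD8_Naive, 24 are drawn, with the log2 difference of the average against all other cells (bars, left) and the share of cells having a value above 0 in CD8_Naive and in all other cells in percent (points, right). *Cd8b1* leads with 3.45, and its share is 98.5% against 61.5%.

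*Cd8b1*, the CD8 beta chain, had the largest log2 difference of the 198 genes at 3.45, with a value above 0 in 98.5% of CD8_Naive cells against 61.5% of all other cells. *Cd8a*, the CD8 alpha chain, stood at 2.41 with 85.6% against 61.6%. Both genes lie on chromosome 6 of the mouse genome (GRCm38, plus strand), *Cd8b1* at 71322788 to 71337494 and *Cd8a* at 71373427 to 71379173. In CD8_Effector the order of the chains was the same, with 3.15 for *Cd8b1* and 2.51 for *Cd8a*. The types were each compared with all other cells, so these comparisons share nearly all of their cells. *Cd8b1* was also listed for gdT_Naive at 0.77, although only 35.5% of those cells had a value above 0, and *Cd8a* was listed for no type beyond the CD8 pair.

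The gene lists used from here on were chosen with earlier results of these data known, so their counts are a description. Of all listed genes, 11.8% were listed for CD8_Naive. All 8 listed genes of the co-receptor and receptor list were listed for CD8_Naive, with a median log2 difference of 1.40 against 0.52 over the 198 genes. The remaining gene, *Cd247*, which encodes the CD3 zeta chain, was listed for no type. *Trac*, the constant region of the receptor alpha chain, stood at 1.82 in CD8_Naive, beside 2.14 in CD4, 2.12 in Treg, 1.90 in CD8_Effector and 0.50 in gdT_TypeI. Of the CD3 chains, *Cd3d* (chromosome 9, 44981786 to 44987339, plus strand) had a log2 difference of 1.67 in CD8_Naive, its largest among the 9 types that list it, and a value above 0 in 99.8% of the cells. The order was the reverse for *Cd3g*, whose 0.66 was the lowest of the 9 types listing it, and *Cd3e* stood at 1.12 in CD8_Naive beside 1.56 in gdT_TypeIII_CD163l1. The beta constant regions *Trbc1* and *Trbc2* stood at 0.89 and 0.75, and *Trbc1* was the only gene of the list with a lower share in CD8_Naive (77.9%) than in all other cells (87.5%). These 2 genes encode near-identical constant regions, and whether reads were divided between them by the counting was not tested.

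The promoters of *Cd8a* and *Cd3d* are shown because they stand before a co-receptor and a receptor gene at the top of the list, and because *Tcf7* and *Lef1*, whose products bind the TCF/LEF core motif, were among the members. Both sequences are from RefSeq (GRCm38.p6) and run from 250 bases before to 50 bases after the gene start. They are at chr6:71373177-71373476 (plus strand) and chr9:44981536-44981835 (plus strand), with matches to CTTTGA on either strand in capitals.
Cd8a: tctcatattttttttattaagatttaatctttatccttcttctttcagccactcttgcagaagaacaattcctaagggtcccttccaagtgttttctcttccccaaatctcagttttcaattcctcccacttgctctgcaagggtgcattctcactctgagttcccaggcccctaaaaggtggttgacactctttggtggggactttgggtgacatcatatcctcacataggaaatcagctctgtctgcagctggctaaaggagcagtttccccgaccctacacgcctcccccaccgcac
Cd3d: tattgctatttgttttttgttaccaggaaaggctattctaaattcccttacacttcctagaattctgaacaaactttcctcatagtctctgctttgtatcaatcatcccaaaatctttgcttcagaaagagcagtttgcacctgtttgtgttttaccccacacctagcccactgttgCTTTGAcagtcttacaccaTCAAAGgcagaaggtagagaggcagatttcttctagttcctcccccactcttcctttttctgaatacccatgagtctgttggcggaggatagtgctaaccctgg
The *Cd8a* window held 0 matches and the *Cd3d* window held 2, starting at bases 178 and 197 and lying on opposite strands. Of the 198 genes, 155 had a promoter in the RefSeq table, and 12.3% of these held the motif at least once, against 16.2% of all 27025 promoters of that length. The motif was chosen after the listings were known. A match is only a stretch of letters, and the share in the members lay below that in all promoters.

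Of a list of 20 genes of receptor signalling and costimulation, 12 were listed for no type. The remaining 8 were all listed for CD8_Naive, with a median of 0.97. The receptors *Icos* and *Ctla4*, placed on the CD4 helper and Treg list instead, were not listed for CD8_Naive. *Txk*, a Tec family kinase, led the 8 genes with 1.29, its largest value in any type. *Themis*, needed for T cell selection in the thymus, stood at 1.06, and *Lck*, the kinase that binds CD8 and CD4, at 0.92 beside 1.13 in CD8_Effector. The costimulatory receptors *Cd27* and *Cd28* stood at 0.98 and 0.90. *Cd28* was higher in CD4 (1.61) and Treg (1.20). *Cd5* and *Cd6*, receptors that restrain receptor signalling, stood at 0.96 and 0.98 and were likewise higher in CD4, at 1.92 and 1.61.

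Homing and egress genes were listed in part, with 6 of the 11 that the table lists for any type and a median of 1.16. *Ccr7* (chromosome 11, 99144196 to 99155077, minus strand) was the third gene of the type, at 2.62 with 95.9% of cells against 72.0%. It was also listed at 2.28 for gdT_Naive, 2.13 for the type named Plasma cell, 1.81 for CD4 and 0.81 for Treg. *S1pr1* was lower here (1.10) than in gdT_Naive (1.94), CD4 (1.85) or Treg (1.53). *Cd55*, which protects cells from complement, *Il6ra*, a chain of the IL-6 receptor, and *Ly6c1*, a Ly6 surface protein, had log2 differences of 1.22, 0.99 and 0.89 but lower shares in CD8_Naive than in all other cells. The genes not listed for CD8_Naive were *Ccr9*, *Cxcr4*, *Itgae*, *Itga4* and *Cd44*, of which *Cd44* marks T cells that have met antigen.

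Among transcription and quiescence genes, 6 of the 10 listed for any type were listed for CD8_Naive, with a median of 1.27. *Lef1* (chromosome 3, 131110471 to 131224356, plus strand) stood at 1.88 and *Tcf7*, which encodes TCF1 (chromosome 11, 52252371 to 52283014, minus strand), at 1.35. *Lef1* was at 1.85 in gdT_Naive and 1.75 in CD4, with 0.26 in CD8_Effector, which did not pass the adjusted p-value, and *Tcf7* was at 1.71 in gdT_Naive and 1.46 in CD4 and was not listed for CD8_Effector. *Satb1*, a chromatin organizer, had its largest value of any type in CD8_Naive (1.36, with 97.4% of cells against 82.5%). *Klf2*, the factor that drives *S1pr1*, was at 1.18 here and at 1.19 in CD8_Effector. *Myb* stood at 0.73 and *Txnip*, an inhibitor of thioredoxin and of glucose uptake, at 0.64. *Id3*, *Btg2*, *Sox4* and *Tox* were listed for other types only.

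Of a list of naive CD8 T cell transcripts, 10 of the 14 listed for any type were listed for CD8_Naive. Their median was 1.29. *Dapl1* (chromosome 2, 59484653 to 59505020, plus strand) was the second gene of the type at 2.80, although its share was 69.1% against 66.1% of all other cells. Its values in the other types that list it were lower, 1.28 in CD4 and 0.54 in CD8_Effector. *Nsg2* stood at 1.29 in CD8_Naive and at 0.46 in gdT_TypeI and 0.38 in gdT_Naive. The actin crosslinker *Actn1* was at 1.54 here and 1.59 in gdT_Naive. *Ms4a4b*, *Ms4a4c* and *Ms4a6b*, members of a family of membrane proteins, stood at 1.26, 1.45 and 1.28. *Igfbp4* (0.79) was lower than in CD4 (1.37), and *Treml2* (0.59) did not pass the authors' adjusted p-value of 0.05. *Ramp1*, *Pdlim4*, *Trib2* and *Tubb2b* were not listed for CD8_Naive.

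Of the survival and cytokine genes, 5 of the 8 listed for any type were listed here, and 0 had a share at least 10 percentage points above that of the other cells. *Il6st*, the signalling chain of the IL-6 receptor, stood at 0.82, *Il21r* at 0.73, *Socs3*, an inhibitor of cytokine signalling, at 0.58, and the survival kinase *Pim2* at 0.53. Except for *Pim2*, the share of cells was lower in CD8_Naive than in all other cells for each gene named here (for *Il6st*, 49.7% against 66.5%). *Il6ra* and *Il6st*, which form the IL-6 receptor, were thus both listed, as they were for gdT_Naive (0.60 and 0.76, the second without passing the adjusted p-value), Treg (1.36 and 0.36) and ILC2_2 (0.28 and 0.34).

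Effector and memory genes were listed in part. The list held 34 genes, all listed for some type, of which 6 were listed for CD8_Naive (17.6%, beside 11.8% of all listed genes). Of these, 3 had a log2 difference of at least 0.5, and 3 had a share at least 10 percentage points above that of the other cells. *Ly6c2*, a Ly6C gene, stood highest at 1.27, beside 1.70 in gdT_TypeI and 1.48 in CD8_Effector. *Ctsw*, the cathepsin of cytotoxic cells, stood at 0.76, and *Nkg7*, a cytotoxic granule protein, at 0.59 with 96.4% of cells. In NK and CD8_Effector, *Nkg7* stood at 2.41 and 1.84. *Eomes*, the transcription factor of memory and cytotoxic cells, was at 0.44 in CD8_Naive and 2.30 in NK, and its share in CD8_Naive was 34.1% against 65.7% of all other cells. *Klrd1* (0.38) and *Il2rb* (0.26) encode CD94 and CD122. The genes *Ccl5*, *Gzma* and *Gzmk*, which encode a chemokine and granzymes, were not listed for CD8_Naive and stood at 3.15, 2.10 and 2.39 in CD8_Effector. Whether the 6 effector genes come from all CD8_Naive cells or from some of them was not tested, as the table holds no single cells.

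**Figure D2:**
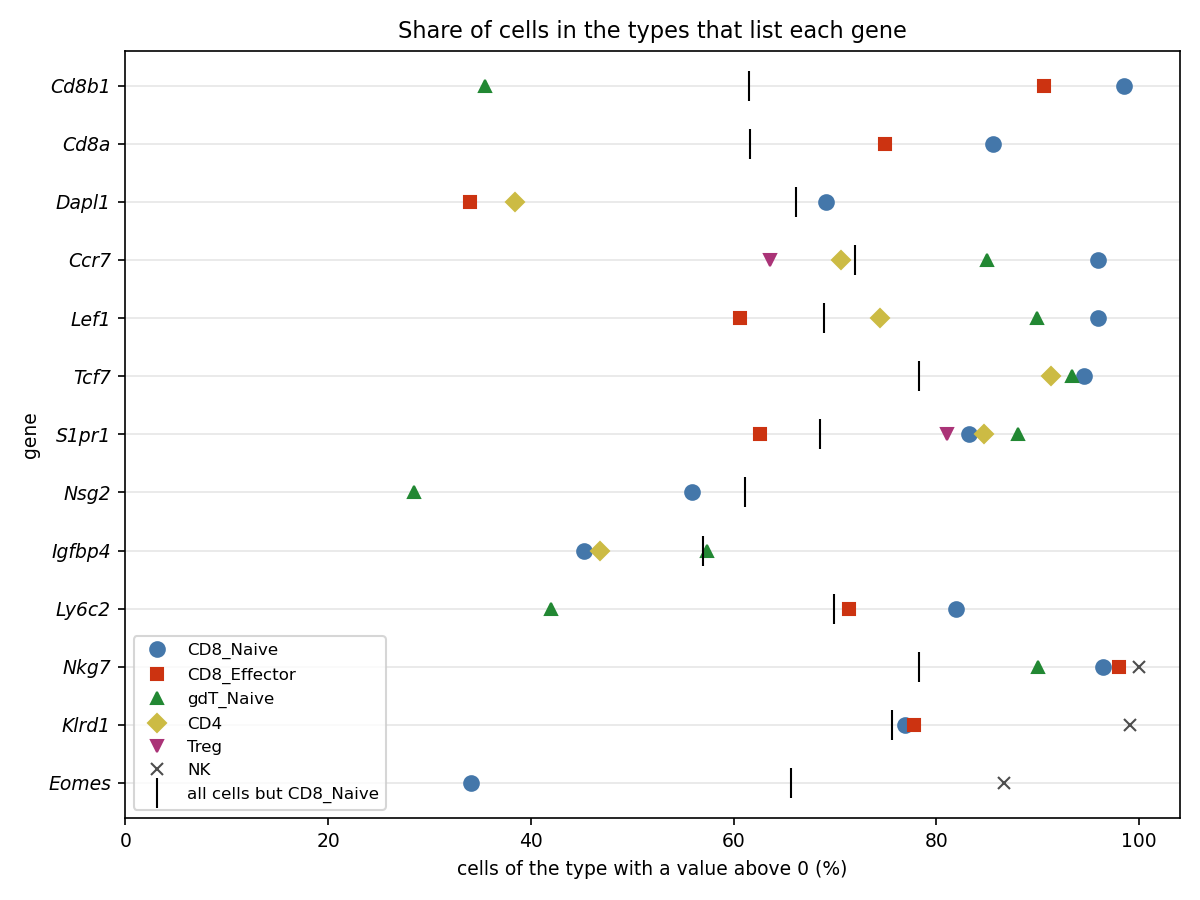
The share of cells having a value above 0 in percent (horizontal) for 13 genes (vertical), in CD8_Naive and in 5 other types where the table lists the gene, with a black bar for all cells outside CD8_Naive. *Cd8b1* reaches 98.5% in CD8_Naive and 35.5% in gdT_Naive, while *Eomes* is at 34.1% in CD8_Naive, below the 65.7% of all other cells.

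No gene was listed for CD8_Naive of the 11 CD4 helper and Treg genes, 13 gamma-delta T cell genes, 8 NK and ILC1 genes, 15 ILC2 genes, 8 myeloid and basophil genes and 6 endothelial genes that the table lists for some type. *Cd4* and *Trdc* were among these unlisted genes. With 11.8% of all listed genes listed for CD8_Naive, a count of 0 for any single one of these short lists says little. The hepatocyte and lung epithelium lists had 1 gene each in the table, also not listed here. Of 15 B and plasma cell genes, *Ighm*, the IgM heavy chain, was listed at 0.32 with 52.6% of CD8_Naive cells against 65.6% of all others, beside 4.41 in Plasma cell.

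Of 14 proliferation genes 1 was listed (*Tubb5*, a tubulin, 0.39), and none of *Mki67*, *Top2a* or *Stmn1*. The immediate early and stress list gave 2 of 21, *Dusp2* (0.65) and *Hsp90aa1* (0.33). The interferon list gave 2 of 12, *Irf1* (0.58) and *Ly6e* (0.32), of which *Ly6e* did not pass the adjusted p-value. With 11.8% of all listed genes listed for CD8_Naive, counts of this size say nothing particular about these lists. *Psmb9*, an immunoproteasome subunit (0.69), *Gimap4*, a GTPase of lymphocyte survival (0.50), *Itga6*, the integrin alpha-6 chain (0.91), and the glycolytic enzyme *Pgam1* (0.26) were the single members of their lists, which had 1, 2, 8 and 8 genes listed for any type. In all, 59 of the 198 genes were on at least 1 of the 23 lists.

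Among the genes outside the lists were several of ribosome assembly and protein folding, which were picked out after their values were seen. *Npm1*, nucleophosmin, stood at 1.10, its largest value of any type, beside 0.74 in the progenitor type MMP_LMPP and 0.31 in the type the authors spelled Prolifelation cell. The mitochondrial chaperonin gene *Hspe1* was at 0.89 in CD8_Naive and 0.51 in MMP_LMPP. *Fbl*, the methyltransferase fibrillarin, stood at 0.59, *Nop10* at 0.56 and *Ncl*, nucleolin, at 0.32. Chaperonin subunits *Cct5*, *Cct6a* and *Cct8* lay at 0.33, 0.32 and 0.27, each with a slightly lower share of cells in CD8_Naive than in all other cells. The values of *Cct5*, *Cct6a* and *Ncl* were higher in MMP_LMPP, at 0.63, 0.66 and 0.39, and *Cct8* was at 0.29 in Prolifelation cell. *Rgs10*, which shortens G protein signalling, was higher than any of these, at 1.67 with 89.3% of cells against 65.3%. *Cmah*, which makes N-glycolylneuraminic acid, had a value above 0 in 74.6% of CD8_Naive cells against 66.3%, and its log2 difference was larger in CD8_Naive than in any other type. *Sidt1* stood at 1.39.

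Most of the 198 genes were listed for other types as well, and the listings of different types share the same cells. Only 3 genes (*Mettl1*, *Atic* and *Nifk*) were listed for CD8_Naive alone, with log2 differences of 0.50, 0.36 and 0.27, and the first did not pass the adjusted p-value. A further 148 were listed for at least 1 other T cell type, and these had a median log2 difference of 0.65. The 50 listed for no other T cell type had a median of 0.32, and 40 of these were listed for MMP_LMPP or Prolifelation cell. Those types had the longest lists, 403 and 513 genes. Members made up 16.4% and 10.7% of them, beside 11.8% of all listed genes. By type, 108 genes were also listed for gdT_Naive (54.5% of the 198 and 72.5% of the gdT_Naive list), 79 for CD4 (39.9% and 60.3%) and 49 for CD8_Effector (24.7% and 52.1%). Among genes whose share was at least 10 percentage points above that of the other cells in each type, these counts were 12, 9 and 10. None of the 136 genes of the type named ILC2 was among the 198, beside 11.8% of all listed genes. That type made up 43.2% of all cells and so much of what CD8_Naive was compared with. The log2 difference was larger in CD8_Naive than in any other type for 41 genes, *Cd8b1*, *Dapl1*, *Ccr7* and *Lef1* among them.

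The genes whose set of types was most like that of *Cd8b1* were *Cd8a*, *Nop10* and *Treml2*, with a Jaccard index (types in common over types in either set) of 0.667 over 21 types. *Dnajc9*, *Lef1*, *Psmb9* and *Themis* followed at 0.6. These sets hold few types, so 1 listing more or less changes the index.

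A higher average did not always go with a higher share of cells. The share in CD8_Naive lay below that of all other cells for 113 of the 198 genes (57.1%). It did so for 7 of the 36 genes with a log2 difference of at least 1 and for 106 of the 162 others. The difference was widest for *Abcb1b*, a drug efflux pump, with 28.1% against 67.0%, and *Tmem108*, with 21.2% against 58.0%. *Cxcr5*, the follicle-homing receptor, had 19.2% against 43.7%. A lower share was likewise found for 76.3% of the genes listed for CD4 and 74.5% of those for gdT_Naive. For CD8_Effector, ILC2_2 and Treg it was found for 60.6%, 53.0% and 51.3%. For ILC2 and NK it was found for 0.735% and 11.2%. At the lower edge of the table stood *Srsf10*, *Atad2* and *Ftl1* at 0.25 and *Dnajc9* and *Lsm4* at 0.26, and nothing below 0.25 was listed.

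**Figure D3:**
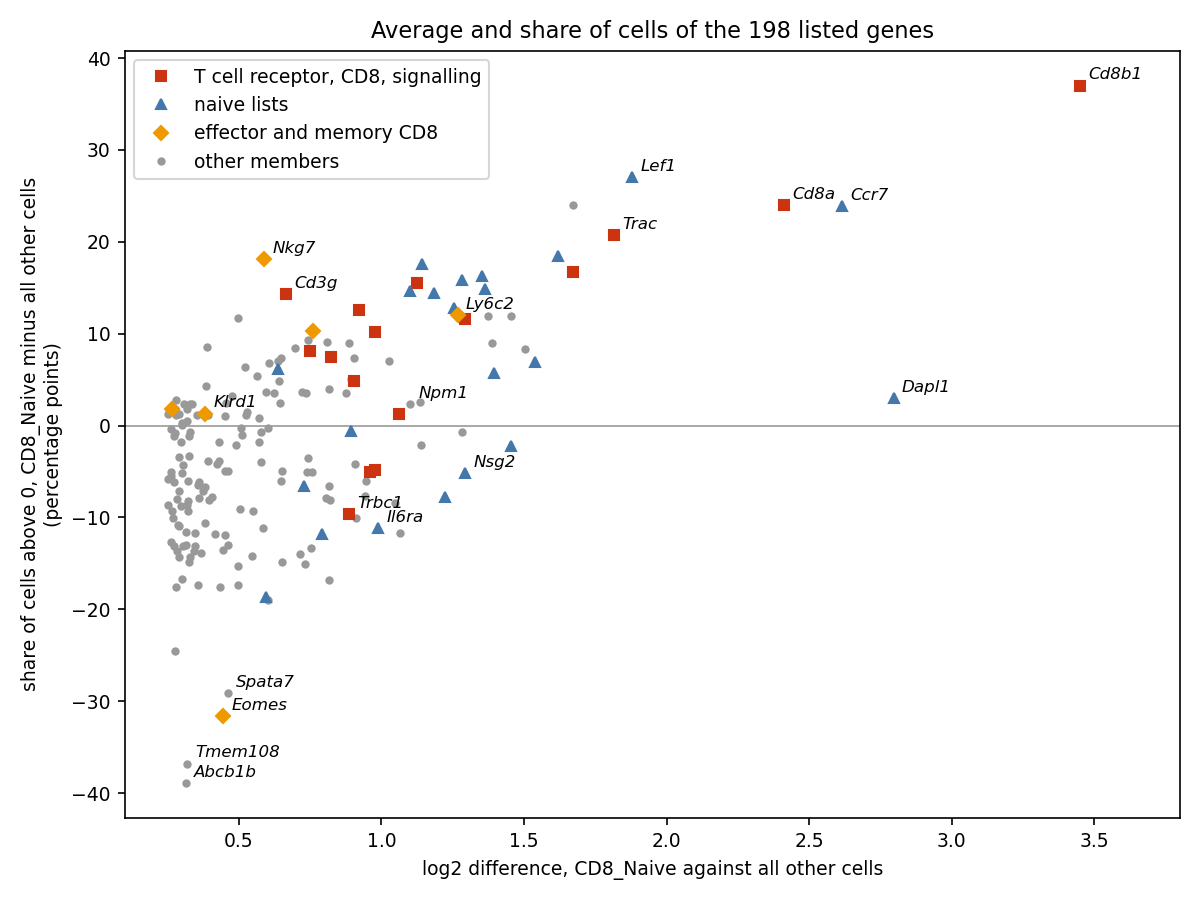
Each point is 1 of the 198 genes, with its log2 difference of the average (horizontal) and the share of CD8_Naive cells with a value above 0 minus that of all other cells in percentage points (vertical). 113 points lie below 0, and *Cd8b1* stands alone at the right.

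The members were followed into the ILC2 subcluster table, which compares 10 subclusters of the cells kept as ILC2s with each other. Of the 198 genes, 130 (65.7%) were listed there for some subcluster, beside 48.8% of all 1679 genes. Of the 30 members on the T cell receptor and naive lists, 15 (50%) were listed, near the 48.8% of all genes. *Cd8b1*, *Cd8a*, *Trac*, *Cd3d*, *Ccr7* and *Dapl1* were listed for no ILC2 subcluster. Cells with markers of other cell types, *Cd3* among them, had been left out by the authors before this clustering. That receptor genes were unlisted is therefore no separate result. Other genes of the naive lists were higher in some ILC2s than in the rest. Subcluster 1 listed *Klf2* (1.17), *S1pr1* (1.05), *Tcf7* (0.75) and *Lef1* (0.41). Subcluster 5 listed *Ms4a4b* (3.72), *Cd3e* (2.36) and *Cd28* (2.25), of which *Cd3e* had a value above 0 in 32.0% of its cells against 4.7% of other ILC2s. Subcluster 4 listed 82 members among its 802 genes, such as *Mif* (1.38), *Hspd1* (1.10) and *Npm1* (1.04), and subcluster 7 listed 35 among its 270 genes. The 4.7% of *Cd3e* outside subcluster 5, beside the 83.1% given above, is on another scale or over other cells. Values are therefore not compared between the tables.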

How the data were processed

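Cells were sorted from liver and lung, 10000 to 20000 cells were loaded for each of the 4 libraries, and transcript 3' ends were sequenced. The authors aligned reads with Cell Ranger (mm10), excluded cells with under 500 genes, scaled counts to 10000 per cell, and clustered in Seurat with 50 principal components at a resolution of 5. Flow cytometry served to remove doublets and dead cells, and a doublet caller was not described.

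The columns of the deposited tables are the authors' own comparisons of each cluster with all other cells: a log2 difference of averages, the shares of cells with a value above 0, and p-values. The deposited log2 values and shares are printed as the authors' values. The deposited p-values were used as a filter at 0.05 and for nothing else, and none was computed here, since cells are not replicates. The adjusted p-value divided by the raw one gave 2000 features tested. The Seurat assay was not stated. A gene not listed for a type was lower, unchanged, too rare or not tested. The tables held 0 further columns of values per sample.

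Sizes were fitted by least squares (numpy 2.4.6) so that, for each gene listed for at least 2 types, the share in all cells was equal whichever type listed it. On simulated data over 1045 genes the largest error was 0.0275 percentage points. All 198 symbols matched GENCODE vM21 for coordinates. Genes named were the largest and smallest by log2 difference and by share, all listed genes of the gene lists, and a few said to be picked later. The members and lists were chosen with earlier results of these data known. Alternatives were stricter limits on the p-value, the log2 difference and the share. Some members are not reported here.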

Additional observations from a re-analysis of the deposited data

How the results depend on the processing

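With the authors' adjusted p-value under 0.05, the number of genes listed was 188, those on a gene list 57, those shared with another T cell type 139 and those with a lower share 103, each within 1.5 times the value above. With a log2 difference of at least 0.5 in every type, 103 genes were listed, 6 for no other type, 86 for another T cell type too, and 43 had a lower share in CD8_Naive. With a share at least 10 percentage points above that of the other cells, 26 genes were listed, 0 for no other type, 23 for another T cell type too, and 23 of the 26 were on a gene list. Fewer listings are kept under these limits, in CD8_Naive and in the other types. Of the genes also listed for gdT_Naive, CD4 and CD8_Effector, 64, 43 and 33 were left under the log2 limit and 12, 9 and 10 under the share limit. Under the share limit, the signalling, homing and naive CD8 transcript lists kept 3 genes each, from 8, 6 and 10. The size of CD8_Naive ran from 2.68% to 2.71% over its 4 alternatives. No library could be left out, and no value carries an error between mice. No paired analysis was possible because the tables hold no value per library. Depth was unknown, so a gene not listed cannot be called absent.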
